A study of Homo sapiens with 6 samples.

Results

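Hepatocyte lineage transcription factor genes were examined in the list of chromatin regions that UHRF1's Tandem-Tudor domain (TTD) bound in HepG2 cells, an established human liver cancer line labelled as hepatoblastoma. The 8 genes are HNF4A, HNF4G, FOXA1, FOXA2, FOXA3, CEBPA, ONECUT1 and PROX1. They were chosen by name from 20033 protein-coding genes of GENCODE release 44. The rule used no TTD value, but the choice was made with earlier results of these data known. For each gene, TTD peaks were counted and the covered percent (the share of bases in peaks, called cover) was measured over 3 windows. These were the 5 kb TSS window (2.5 kb on each side of the transcription start site, taken as the outermost one annotated), the gene body, and the distal window, which reaches 100 kb to each side of the TSS and leaves out the TSS window. The study comprised 6 libraries of untreated HepG2 cells, in 3 kinds (input, H3K9me2 ChIP and CIDOP with the TTD) of 2 biological replicates. CIDOP is a pull-down of MNase-released mononucleosomes with a GST-tagged reading domain in place of an antibody. The peaks were called on the mean of both TTD replicates, so every value below comes from 1 pooled list of 31569 peaks, which gives positions and widths but no score. No error between replicates can be given for it, no test was made, and the list carries no read depth, for which the methods state only a minimum per library. A missing peak can mean a signal below the authors' cutoff, a blacklisted region or a peak removed by hand. The list holds no expression values, so whether HepG2 cells expressed these genes was not examined.

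The TTD is known to read H3K9me2/3, and in this study it was examined for a preference for H3 tails that also carry K4me1, a mark of enhancers. The 8 genes encode factors that together establish and maintain the hepatocyte program. FOXA1, FOXA2 and FOXA3 are forkhead pioneer factors that open liver enhancers, HNF4A and HNF4G are nuclear receptors, CEBPA is a basic leucine zipper factor, ONECUT1 (HNF6) is a cut-homeodomain factor, and PROX1 is a homeobox factor of hepatoblast development. Lineage factors of this kind are typically controlled by several distant enhancers, whereas the TTD list marks bound chromatin and does not assign a peak to a target gene.

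Most TTD peaks near these genes lay outside the TSS window, which takes up 5 kb of the 200 kb around each TSS. A peak reached into the TSS window of 3 of the 8 genes, FOXA2, CEBPA and HNF4A, and 16.9% of all protein-coding genes had such a peak. At HNF4A the peak covered only 0.840% of the window, and 0% of the window around a start site 102 bp downstream. The median TSS cover of the 8 genes was 0%, as it was over all genes, and the largest value was 22.2%, at FOXA2. The median distal cover was 10.2%, against 1.95% over all protein-coding genes. Cover was lower at the TSS than in the distal window for 7 of the 8 genes, all except CEBPA. This held for 62.4% of all genes, or 12501 of 20033. Only genes with a peak within 100 kb can differ between the windows, and these were all 8 genes but 15613 of the 20033. The median of distal minus TSS cover was 8.82 percentage points for the 8 genes and 0.985 over all genes. Both values for the 8 genes depended on the windows. The median distal cover was 6.56% with a reach of 50 kb (1.38% over all genes) and 6.32% with 250 kb (2.45% over all genes). The median difference was between 3.17 and 4.45 percentage points with either other TSS window or either other reach. The count of genes with a peak at the TSS was 4 at the canonical start sites (3394 of all genes), where FOXA1 is added. It also depended on the window, with 1 gene at 1 kb on each side (2223 of all 20033 genes) and 6 genes at 5 kb on each side (4418 of all genes). It was 1 when peaks narrower than 2250 bp, the median of the list, were left out (1461 of all genes). At the outermost start site, FOXA1 and PROX1 combined an empty TSS window with a distal cover of at least 10%, as did 5.58% of all genes.

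**Figure D1:**
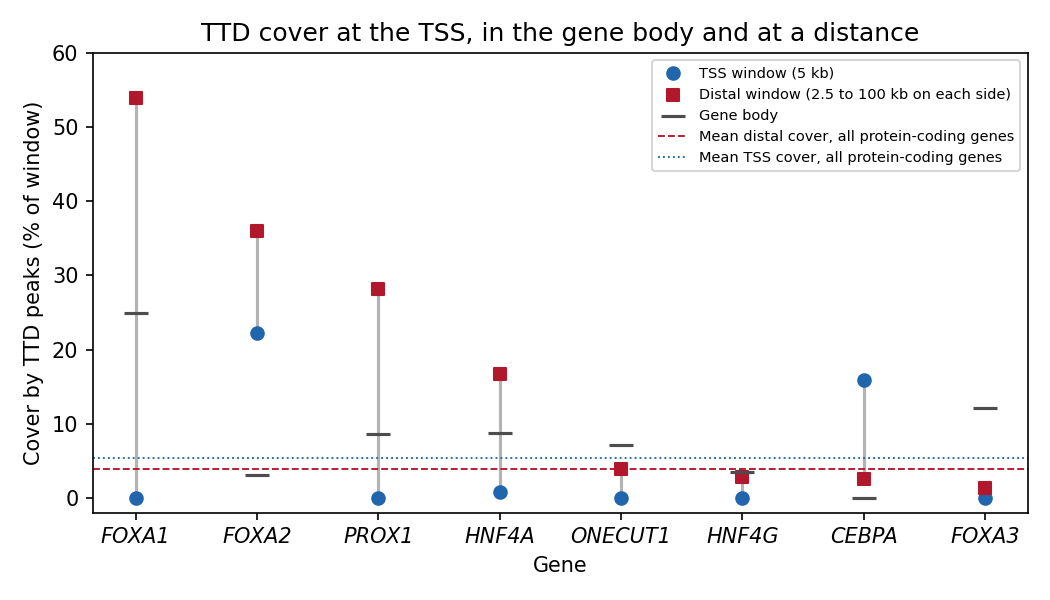
Cover by TTD peaks (y axis, percent of the window) for each of the 8 genes (x axis, ordered by distal cover), with circles for the 5 kb TSS window, squares for the distal window from 2.5 to 100 kb on each side, and dashes for the gene body. Horizontal lines are the means over all protein-coding genes, 3.87% for distal and 5.30% for TSS cover, and only at CEBPA does the circle lie above the square.

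A short window is empty more often than a long one, so the TSS window was also set beside 38 windows of its own size, placed every 5 kb out to 97.5 kb from the TSS. For the 8 genes together, 94 of 304 such distal windows held a TTD peak, or 30.9%, and over all protein-coding genes the share was 10.2%. Of the TSS windows, 37.5% held a peak for the 8 genes and 16.9% over all genes. At equal size, TSS windows thus held a peak more often than distal ones in both sets, though the first TSS share rests on only 8 windows. At FOXA1, 30 of the 38 windows contained a peak and 23 were covered to at least 50%, while its TSS window contained none. FOXA2 had 19 windows with a peak, PROX1 17 and HNF4A 16. At the other 4 genes the counts were 1 (FOXA3), 3 (CEBPA) and 4 each (HNF4G and ONECUT1), so that most windows near these genes held no peak, whereas the TSS window of CEBPA held one.

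The genes fell into 2 sets by distal cover, a division made after the values were seen. FOXA1 (53.9%), FOXA2 (36.0%), PROX1 (28.1%) and HNF4A (16.7%) each had a distal cover of at least 10%, which 9.98% of all protein-coding genes reached. Of the 3 reaches computed, HNF4A passed it only with 100 kb, and had 4.46% with 50 kb and 8.70% with 250 kb. ONECUT1 (3.82%), HNF4G (2.81%), CEBPA (2.52%) and FOXA3 (1.32%) lay close to the genome-wide median or below it on the scale of percent cover. The share of all genes with a distal cover as high was 0.0699% for FOXA1, 0.414% for FOXA2, 0.899% for PROX1 and 3.96% for HNF4A, but 32.3% for ONECUT1, 40.7% for HNF4G, 43.6% for CEBPA and 58.1% for FOXA3. Of the 67 peaks within 100 kb of the 8 TSSs, 57 belonged to the first 4 genes and 10 to the others. At least 1 peak lay within 100 kb of each of the 8 genes, as for 77.9% of all protein-coding genes.

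**Figure D2:**
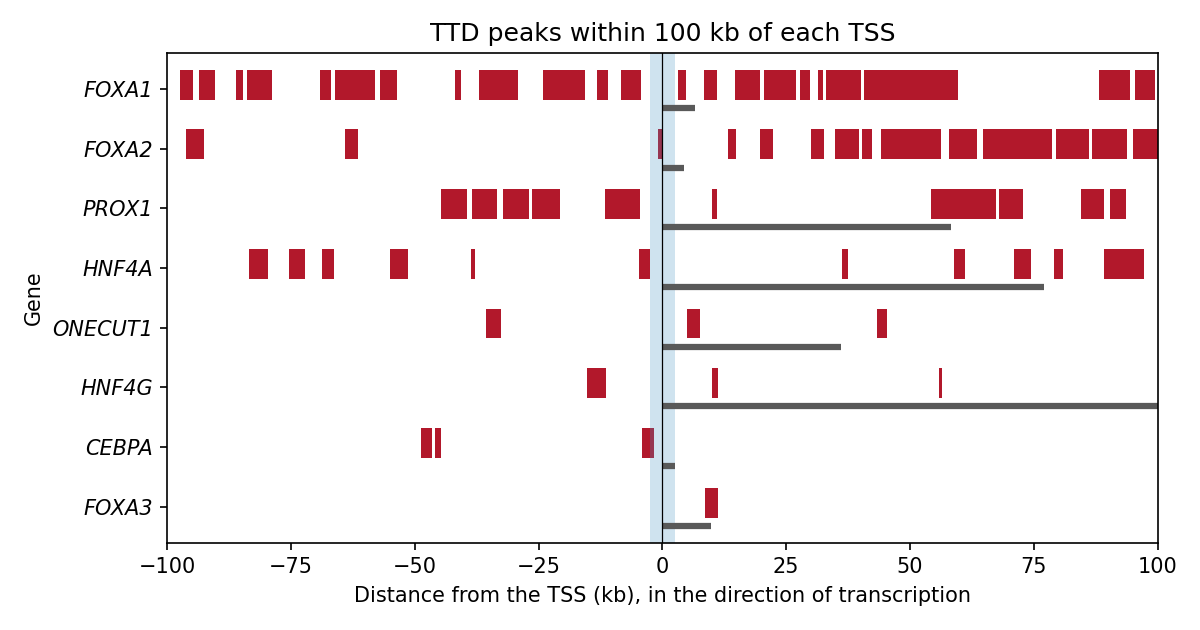
TTD peaks (red boxes, drawn to scale) within 100 kb of the TSS of each gene; the x axis is the distance from the TSS in kb, positive in the direction of transcription, the gray bars are the gene bodies and the blue band is the 5 kb TSS window. FOXA1 has 22 peaks on both sides of an empty band, FOXA2 has most of its 14 peaks downstream, and FOXA3 has a single peak.

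FOXA1 (ENSG00000129514.8, chromosome 14, 37589552 to 37596059, minus strand in hg38) had the densest surroundings of the 8 genes. Its distal cover of 53.9% ranked 13 of 20033 genes and compares with 4.19% for the whole of chromosome 14. Cover was similar on both sides, with 51.2% upstream and 56.5% downstream. No peak reached the TSS window of the outermost start site, and distal minus TSS cover, 53.9 percentage points, ranked 3 of 20033 genes. The TSS lies in a stretch of 7370 bp without a peak, between a peak 3099 bp away inside the gene and one that starts 4272 bp upstream. Of the 22 peaks within 100 kb, the 12 upstream ones lie in introns of TTC6, a gene that overlaps the upstream region. Downstream, 8 peaks lie in MIPOL1, 1 in an exon of FOXA1 and 1 outside protein-coding genes. The widest of them, 19020 bp from 37536331 to 37555350, is in MIPOL1. The FOXA1 peak covers 1620 bp, or 24.9% of the short gene.

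The choice of start site matters at FOXA1, where GENCODE lists 5 start sites within 1797 bp. A peak reached into the TSS windows of 4 of the 5, all but the outermost. The cover ranged from 0% at the outermost site to 23.98% at the innermost one, and was 4.24% at the site of the Ensembl canonical transcript. None of the 5 sites lies in a peak. The RefSeq promoter of FOXA1 (chr14:37595200-37595499, GRCh38.p14, minus strand, printed 5′ to 3′) is shown because it lies in the empty stretch.
FOXA1 promoter: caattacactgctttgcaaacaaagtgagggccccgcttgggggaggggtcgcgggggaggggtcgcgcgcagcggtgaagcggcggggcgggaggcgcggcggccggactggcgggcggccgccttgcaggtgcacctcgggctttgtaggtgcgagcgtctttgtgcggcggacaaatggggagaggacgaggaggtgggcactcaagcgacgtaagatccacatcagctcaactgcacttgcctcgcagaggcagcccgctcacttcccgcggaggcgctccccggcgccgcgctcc
No part of the promoter is covered by a peak. It has a GC content of 69.3% with 34 CpG sites in 300 bp. It holds none of the motifs described below, which would stand in capitals.

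FOXA2 (ENSG00000125798.15, chromosome 20, 22580998 to 22585455, minus strand) is the only one of the 8 genes with its TSS, taken as the outermost start site, inside a peak, as 2.94% of all protein-coding genes have. Its canonical start site, at 22584572, lies 749 bp outside the peak, with the same TSS cover of 22.2%. The peak is narrow, 1110 bp from 22585321 to 22586430, and extends from the first exon over the TSS to the upstream side. It covers 76.8% of the central 500 bp and 22.2% of the TSS window. The distal peaks of FOXA2 are distributed unevenly. Downstream cover was 65.6%, which ranked 9 of 20033 genes, and upstream cover was 6.48%, against 7.04% for the whole of chromosome 20. Of the 14 peaks, 11 lie downstream and 2 upstream, separated from the TSS peak by 13080 bp and 60550 bp without a peak. The downstream peaks form a chain from 22481411 to 22572240 with widths up to 14020 bp, and 4 of them overlap the lncRNA gene LINC00261. In the band from 50 to 100 kb downstream, 89.0% of the bases were covered. A section of the peak on the upstream side of the TSS (chr20:22585771-22585970, hg38, plus strand) is shown as the promoter-proximal bound sequence.
FOXA2 nearest peak: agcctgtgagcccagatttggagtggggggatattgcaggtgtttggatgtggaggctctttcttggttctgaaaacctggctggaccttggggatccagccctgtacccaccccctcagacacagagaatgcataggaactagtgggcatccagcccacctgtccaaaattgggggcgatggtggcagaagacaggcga
It has a GC content of 56.0% with 2 CpG sites in 200 bp. Because the TSS peak is narrower than the median of all peaks, it was absent from the list of wider peaks, and in a window of 1 kb on each side the TSS cover was 55.5% and distal minus TSS cover was -19.5 percentage points. With a distal reach of 50 kb the difference was -1.76.

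FOXA3 (ENSG00000170608.3, chromosome 19, 45863989 to 45873797, plus strand) differed from its paralogs in the number of peaks. A single peak of 2570 bp, from 45872611 to 45875180, lies over the 3′ end of the gene, 8622 bp from the TSS, and gives a gene body cover of 12.1%. Upstream, the next peak is 123648 bp from the TSS, so that upstream cover was 0%, and downstream cover was 2.64%. FOXA3 also has the most crowded surroundings, with 9 other protein-coding TSSs within 100 kb, where the median over all genes is 3 and the other 7 genes have 0 to 2. Chromosome 19 as a whole was covered to 1.26%. Gene density, the low cover of chromosome 19 and the low cover at FOXA3 cannot be told apart in this list.

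HNF4G (ENSG00000164749.13, chromosome 8, 75407914 to 75566834, plus strand), the paralog of HNF4A, had 3 peaks within 100 kb. They measure 3720, 1300 and 450 bp, and the 2 narrower ones lie in HNF4G introns. The TSS lies in a stretch of 21490 bp without a peak, and the nearest peak is 10027 bp downstream. The other 7 genes have a peak within 10 kb of the TSS, as 29.9% of all protein-coding genes do, and HNF4G misses this limit narrowly, since its start site 28 bp further downstream is 9999 bp from the peak. Gene body cover was 3.47% over 158921 bp, from 3 peaks. The canonical start site, 131955 bp further downstream, also had no peak in its TSS window and a distal cover of 2.16%. No protein-coding TSS of another gene lies within 100 kb, as at FOXA2 and PROX1, and the distal cover of these 3 genes was 2.81%, 36.0% and 28.1%.

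HNF4A (ENSG00000101076.20, chromosome 20, 44355699 to 44432845, plus strand) had 11 peaks within 100 kb and a distal cover of 16.7%, almost the same upstream (16.5%) and downstream (16.8%). The peaks have widths from 860 to 7910 bp and a median of 2350 bp, close to the 2250 bp of all peaks. The nearest one, from 44351061 to 44353240, ends 2459 bp upstream, overlaps the gene R3HDML, and reaches into the TSS window by 0.840% of its length. Inside the gene, 3 peaks cover 8.72%. The first, 1240 bp wide, lies in an HNF4A intron and overlaps an exon of the antisense lncRNA HNF4A-AS1, and the others overlap exons. The downstream peaks include 2 that overlap LINC01620. Cover was uneven with distance, with 14.3% from 2.5 to 10 kb, all of it upstream, 0% from 10 to 25 kb, 4.2% from 25 to 50 kb and 28.3% from 50 to 100 kb. A distal window of 50 kb gave 4.46%, and a TSS window of 5 kb on each side, which takes in the upstream peak, gave a TSS cover of 21.8% and a distal minus TSS cover of -5.81 percentage points.

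HNF4A is transcribed from a pair of promoters, known as P2 (upstream) and P1. The start sites of GENCODE form 2 groups, the first at 44355699 to 44355805 and the second at 44401239 to 44401401, 45540 to 45702 bp downstream. In the second group 7 transcripts begin at 44401397, more than at any other site of the gene. Neither group lies in a peak. At 44401397 the TSS cover was 0%, the nearest peak was 8247 bp away, and the distal cover was 11.7% with 9 peaks within 100 kb. Both RefSeq promoters (chr20:44355449-44355748 and chr20:44400989-44401288, GRCh38.p14, plus strand) are shown because neither overlaps a TTD peak.
HNF4A upstream promoter: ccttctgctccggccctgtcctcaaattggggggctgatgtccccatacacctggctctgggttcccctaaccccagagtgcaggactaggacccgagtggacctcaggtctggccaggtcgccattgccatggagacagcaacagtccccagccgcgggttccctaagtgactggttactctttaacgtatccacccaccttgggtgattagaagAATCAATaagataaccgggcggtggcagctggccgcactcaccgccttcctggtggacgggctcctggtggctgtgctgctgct
HNF4A downstream promoter: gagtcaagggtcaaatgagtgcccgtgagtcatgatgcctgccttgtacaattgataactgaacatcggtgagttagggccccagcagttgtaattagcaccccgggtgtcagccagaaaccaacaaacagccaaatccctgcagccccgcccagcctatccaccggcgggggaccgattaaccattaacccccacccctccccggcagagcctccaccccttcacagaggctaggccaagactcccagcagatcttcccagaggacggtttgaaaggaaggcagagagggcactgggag
Capitals in the upstream promoter mark the letters AATCNAT, a core of the motif bound by ONECUT factors, found in 6.08% of the 35116 RefSeq promoters of this length. The promoters contain 11 and 9 CpG sites in 300 bp, fewer than the 34 of the FOXA1 promoter.

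CEBPA (ENSG00000245848.3, chromosome 19, 33299934 to 33302534, minus strand) was the exception in the comparison of TSS and distal cover. Its TSS cover of 15.9% compares with a distal cover of 2.52% (distal minus TSS cover -13.4 percentage points), and TSS cover was the higher one for 15.5% of all genes. The value comes from 1 peak of 2390 bp, from 33304241 to 33306630, that starts 1707 bp upstream of the TSS and overlaps the divergent lncRNA gene CEBPA-DT. The central 500 bp and the gene body were not covered, and CEBPA is the only one of the 8 genes with no peak in its body, where 34.2% of all genes have a peak. The remaining peaks, of 1100 and 2220 bp, lie 44767 and 46477 bp upstream outside annotated protein-coding and lncRNA genes. Downstream, the next peak is 143533 bp from the TSS. In a window of 1 kb on each side the TSS cover was 0%, below the distal cover. A section from the centre of the upstream peak (chr19:33305331-33305530, hg38, plus strand) is shown as the sequence on which this exception rests.
CEBPA nearest peak: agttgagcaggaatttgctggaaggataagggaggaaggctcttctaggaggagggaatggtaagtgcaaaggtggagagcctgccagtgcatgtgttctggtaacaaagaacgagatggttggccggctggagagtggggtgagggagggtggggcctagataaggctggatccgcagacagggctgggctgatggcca
It has a GC content of 56.5% with 3 CpG sites in 200 bp, whereas the 1 kb around the CEBPA TSS has 77.1% GC, a value that 1.94% of all genes reach.

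ONECUT1 (ENSG00000169856.9, chromosome 15, 52755053 to 52791078, minus strand) had 3 peaks within 100 kb. One of 2550 bp lies inside the gene, 4958 bp from the TSS, overlaps an exon and gives a gene body cover of 7.08%. The others, of 3010 and 1890 bp, lie 32623 bp upstream and 43398 bp downstream. None reached the TSS window, and the distal cover of 3.82% compares with 2.25% for chromosome 15. Of its 4 start sites, the innermost had a TSS cover of 2.26% and the others 0%.

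PROX1 (ENSG00000117707.17, chromosome 1, 213983181 to 214041510, plus strand) combined an empty TSS window with a distal cover of 28.1%, against 3.08% for chromosome 1. The TSS lies in a stretch of 14500 bp without a peak. Upstream, 5 peaks of 5070 to 7070 bp follow each other from 213938561 to 213978680, all overlapping the antisense lncRNA gene PROX1-AS1, and upstream cover was 28.9%. Downstream cover was 27.4%. The widest peak, 13150 bp from 214037461 to 214050610, runs over the 3′ end of PROX1, and 3 further peaks overlap LINC02775. Gene body cover was 8.55% from 2 peaks. GENCODE lists 5 start sites within 6537 bp, and none of their TSS windows contained a peak. Distal minus TSS cover, 28.1 percentage points, ranked 67 of 20033 genes. A section from the centre of the nearest upstream peak (chr1:213975041-213975240, hg38, plus strand) is shown because it carries motifs of other factors of the group.
PROX1 nearest peak: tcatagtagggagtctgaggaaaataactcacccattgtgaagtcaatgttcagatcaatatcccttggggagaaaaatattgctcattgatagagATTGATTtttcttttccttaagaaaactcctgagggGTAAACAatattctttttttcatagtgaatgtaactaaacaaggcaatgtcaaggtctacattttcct
Capitals mark ATTGATT, the reverse complement of an AATCNAT match, and GTAAACA, the reverse complement of TGTTTAC, the core bound by FOXA factors. The section has a GC content of 34.5% and no CpG site. The sections shown for FOXA2 and CEBPA hold none of the motifs described below. Both motifs are common, and of all TTD peaks, taken over their whole width, 61.2% hold AATCNAT and 38.0% hold TGTTTAC.

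The cover by distance shows where the difference between TSS and distal cover arises. Averaged over the 8 genes, cover was 4.86% within 2.5 kb of the TSS and 17.1% between 2.5 and 10 kb. It was 16.03% from 10 to 25 kb, 18.2% from 25 to 50 kb and 18.9% from 50 to 100 kb. Over all protein-coding genes, the means were 5.30%, 4.38%, 3.86%, 3.84% and 3.81% in the same bands, so that the mean of the 8 genes was close to that of all genes only within 2.5 kb. The averages rest on few genes. From 10 to 25 kb, cover was 70.8% at FOXA1 but 0% at HNF4A, CEBPA and ONECUT1, and from 2.5 to 10 kb it was 0% at FOXA2 and HNF4G.

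**Figure D3:**
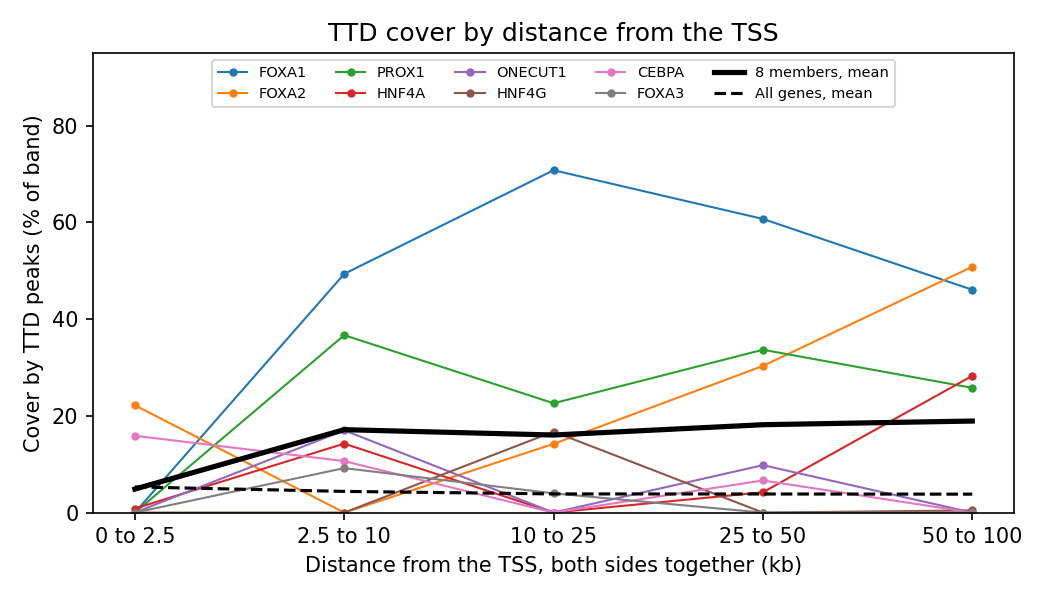
Cover by TTD peaks (y axis, percent of the bases in a band, both sides of the TSS together) in 5 bands of distance from the TSS in kb (x axis). Thin lines are the 8 genes, the thick line is their mean and the dashed line the mean of all protein-coding genes; the thick line starts at 4.86% beside the dashed line at 5.30% and lies at 16.03% or above in the other bands.

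The median width of the 67 peaks together was 3270 bp, against 2250 bp over all peaks, and 48 of them (71.6%) were at or above the latter. The medians were largest at PROX1 (5085 bp), FOXA2 (4290 bp) and FOXA1 (3700 bp), whereas those of HNF4G (1300 bp) and CEBPA (2220 bp) were below the median of the list. Of the 67 peaks, 11 overlap the gene itself, 35 overlap a protein-coding gene of any name, 18 overlap a lncRNA gene alone, and 14 lie outside both. Peaks overlapping the gene body were found at 7 of the 8 genes and at 34.2% of all protein-coding genes. Of the 67 peaks, 30 lie upstream and 36 downstream of the TSS. Distal cover was higher upstream than downstream for 3 of the 8 genes, PROX1, HNF4G and CEBPA, and for 39.1% of all genes. A single peak, the one at FOXA2, contains a protein-coding TSS.

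The 1 kb around the TSS contained 31.97 CpG sites per kb at HNF4A, 55.9 at FOXA2 and 140 at CEBPA, with the other 5 genes between 63.9 and 84.9. The peaks of each gene contained 6.74 (PROX1) to 27.4 (ONECUT1) CpG sites per kb. Over the 67 peaks together, the value was 9.42 per kb, close to the 9.53 per kb of all peaks in the list, and the GC content was 41.5% against 42.8%. In CpG observed/expected ratio around the TSS, HNF4A (0.368) and FOXA2 (0.655) belong to the second quartile of all genes from below, CEBPA (0.941) to the highest, and the other 5 genes to the third. In the third quartile as a whole, 20.01% of the genes had a peak in the TSS window and the median distal cover was 2.16%. FOXA1 and FOXA3, the genes with the highest and the lowest distal cover of the 8, are both in this quartile.

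Motifs of the factors encoded by these genes were counted on both strands in the 67 peaks, as a description of the letters only. TGTTTAC (FOXA) occurred 49 times, or 0.170 times per kb, against 0.188 per kb in all TTD peaks and 0.163 in the genome. CAAAGTCCA (HNF4) occurred 10 times, or 0.0346 per kb, against 0.0321 and 0.0131. The 10 matches were in 8 peaks, with 5 matches at FOXA2, 3 at HNF4A and 1 each at FOXA1 and PROX1. TTGCACAA (CEBP) occurred 16 times, or 0.0553 per kb against 0.0446 and 0.0370, of which 8 were at PROX1. TTGCGCAA (CEBP) was not found in these peaks and occurred 170 times in all peaks. AATCNAT (ONECUT) occurred 182 times, or 0.630 per kb against 0.520 and 0.620. No motif of this set contains another one. In the TSS windows, TGTTTAC was present at 2 of the 8 genes, where 44.3% of all TSS windows hold it, and CAAAGTCCA at none, where 6.23% hold it. TTGCACAA was present at 2 (14.02% of all TSS windows), AATCNAT at 6 (74.7%) and TTGCGCAA at none (1.19%).

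The 8 genes were set beside 3 other lists, whose values are given without a test. Among 20 other transcription factor genes of liver, 2 had a peak in the TSS window, NR1I2 (66.3% cover) and NR1H4 (35.5%), which encode the nuclear receptors PXR and FXR. The median distal cover of this list was 4.09%, with 23.2% at NR1H4 and 10.8% at NR2F2, and TSS cover was below distal cover at 16 of the 20. Of the close relatives of the 8 genes in this list, ONECUT2 had a distal cover of 5.32%, CEBPB of 2.61% and ONECUT3 of 0%, each with an empty TSS window. Among 24 transcription factor genes of other lineages, POU5F1 (16.02%) was the only one with a peak in the TSS window. Their median distal cover was 1.21%, with 11.0% at RUNX1 and 8.11% at TAL1. TSS cover was below distal cover at 16 of the 24, and 7 had none in either window.

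In 16 genes of secreted liver proteins, the kind of gene that such factors are known to activate, TSS cover was mostly the higher one. A peak was present in the TSS window of 13 of the 16, the median TSS cover was 42.4% and the median distal cover 19.1%. TSS cover was below distal cover at 3 of the 16. The largest TSS covers were those of ALB (100%), HP (100%) and FGB (90.8%), and the largest distal covers those of SERPINA1 (43.5%), AFP (33.0%) and ALB (31.2%). The medians of the 8 lineage factor genes, 0% at the TSS and 10.2% in the distal window, were both below those of the secreted protein genes. The distal medians depended on the reach. With 50 kb they were 6.56% for the 8 genes and 31.8% for the secreted protein genes, and with 250 kb 6.32% and 10.2%.

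**Figure D4:**
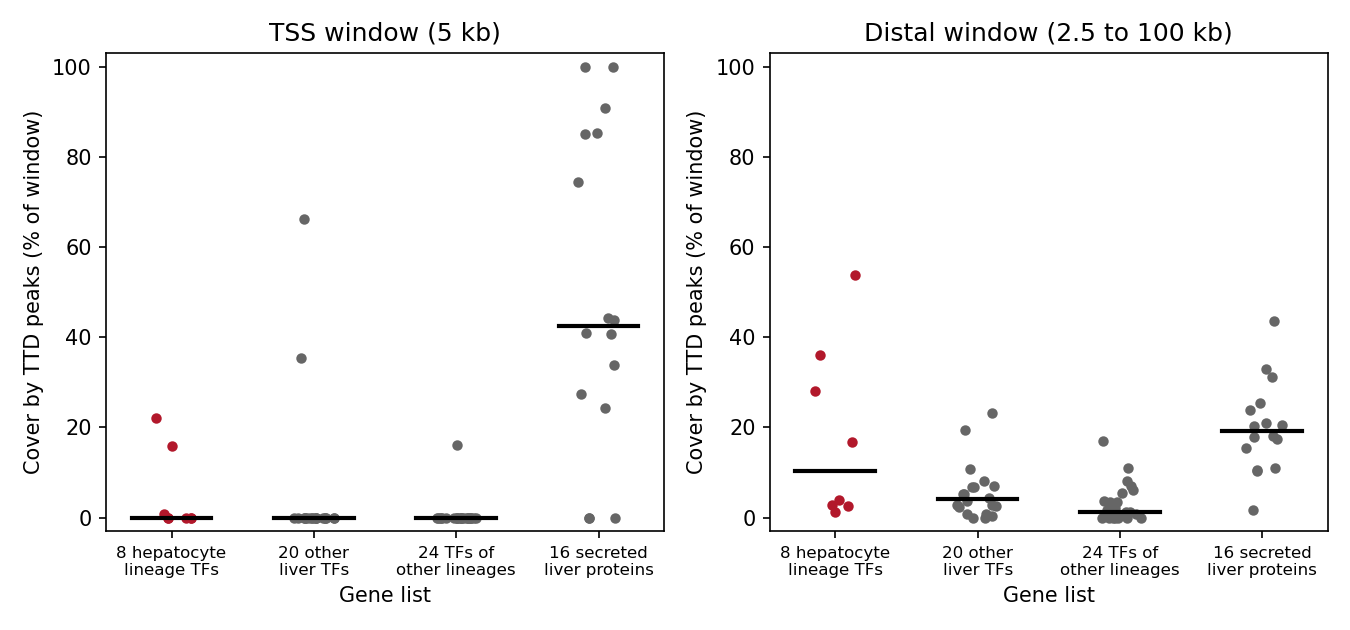
Cover by TTD peaks (y axis, percent of the window) of each gene in 4 lists (x axis), in the 5 kb TSS window on the left and in the distal window from 2.5 to 100 kb on the right; points are genes and bars are medians. The 8 hepatocyte lineage factors have medians of 0% and 10.2%, and the secreted protein genes of 42.4% and 19.1%.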

How the data were processed

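Per the submitters' processing notes and the methods, the authors trimmed reads with Trimmomatic 0.38, aligned them to hg38 with HISAT2 2.2.1, computed RPKM coverage in 10 bp bins with deepTools 3.3.2 outside blacklisted regions, and averaged the TTD replicates. Broad peaks were called with MACS2 2.1.1 at fixed cutoffs and curated by hand. The deposited list gives peak start, end and width in bp, in 1 file for both replicates, with no score, fold or p-value. It therefore carries no depth and no replicate error. A gene's TSS was the 5′ end of its GENCODE release 44 record on hg38, and no peak ran past a chromosome end of that genome. A peak counted in a window with any overlap. No test was made. The members, the gene lists and the motifs were chosen with earlier results of these data known. All 8 members are named, and of each other list the 3 genes with the largest TSS and distal cover, and relatives of members chosen after their values were seen. Some of these genes and sequences are not reported here. Promoters are from RefSeq (GRCh38.p14), which matched 5 of the 8 members. A peak section shown is the 200 bp nearest to the peak's midpoint that holds no annotated UTR base. The cover procedure was tested on simulated data, where all 4000 windows were computed correctly. Alternatives were other TSS windows, the canonical TSS, other distal windows, wider peaks and joined peaks. Python 3.11.15, numpy 2.4.6, pandas 2.3.3 and matplotlib 3.10.9 were used. The signals of the separate libraries, of H3K9me2 and of input were not analysed here.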

Additional observations from a re-analysis of the deposited data

How the results depend on the processing

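The number of the 8 genes with a TTD peak in the TSS window was 1 with 1 kb on each side of the TSS, 6 with 5 kb, and 1 without peaks narrower than the median, against 3. Over all 20033 genes the numbers were 2223, 4418 and 1461, against 3390. Their median TSS cover was 8.05% with 5 kb on each side and 0.420% at the canonical TSSs, against 0%. The median distal cover was 6.56% with a reach of 50 kb and 6.32% with 250 kb, against 10.2%. Over all genes it was 1.38% and 2.45%, against 1.95%. The median of distal minus TSS cover, 8.82 percentage points, was 3.31 with 1 kb and 3.17 with 5 kb around the TSS, and 4.45 and 4.03 with the reach of 50 and 250 kb. It was positive under each of the 10 alternatives, and the number of genes with less cover at the TSS was 6 or 7. Over all 20033 genes that number ranged from 9289 (reach of 50 kb, where it was 6 of the 8) to 15399 (250 kb, where it was 7). The sign of distal minus TSS cover turned for single genes. It was -19.5 (1 kb around the TSS) and -1.76 (reach of 50 kb) at FOXA2, 2.52 (1 kb) at CEBPA and -5.81 (5 kb) at HNF4A. The number of genes with a distal cover of at least 10%, an alternative result added after the data were seen, was 3 with either other reach, at which HNF4A had 4.46% and 8.70%. The share of all genes at or above 10% was computed only with 100 kb, where it was 9.98%, so these counts of 3 have no share beside them. Among the other lists, the number of genes with less cover at the TSS ranged from 10 (reach of 50 kb) to 21 (250 kb) for other lineages and from 2 (canonical TSS) to 6 (1 kb) for secreted proteins. The median distal cover with 50 and 250 kb was 0% and 2.17% for other lineages, and 31.8% and 10.2% for secreted proteins. No paired analysis was possible because the single list used here holds peaks of both replicates averaged, and no replicate could be left out of it. The signals of the separate libraries were not analysed here. The peak cutoff, blacklisting, hand curation and a depth that the list does not carry limit what an empty window means.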
